A study of Mus musculus with 34 samples.

Results

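The 7 genes described here are 4 genes of the *Hoxa* cluster (*Hoxa5*, *Hoxa7*, *Hoxa9* and *Hoxa10*), *Hoxb4*, and the cofactor genes *Meis1* and *Pbx3*. They were taken by gene name from the 13108 gene rows of a count table of HSC RNA-seq libraries, and all 7 had a row. HSCs, sorted as LSK CD48-CD150+ bone marrow cells in samples of 100 cells, came from 4 young *Ythdf2* CTL, 4 young *Ythdf2* CKO, 4 aged *Ythdf2* CTL and 5 aged *Ythdf2* CKO mice on the C57BL/6 background. Every mouse, controls included, was homozygous for a *Ythdf2* fl allele that has *loxP* sites around exon 2 and GFP joined to the start of the protein. The CKO mice also carried *Vav-iCre*, which deletes the allele in hematopoietic cells as a whole and not in HSCs alone. Young mice were 8 to 12 wk old by the study's text, and aged mice were 1 yr old by the sample labels. YTHDF2 is a reader of m6A, a mark on mRNA, and promotes the decay of the transcripts it binds, so the comparisons ask how the levels of these transcripts differ in its absence at each age, and how they differ between ages.

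HOX proteins are transcription factors that bind DNA through a homeodomain and pattern the body axis in the embryo. In blood they are best known from stem and progenitor cells: HOXA9 and HOXA10 promote self-renewal, HOXB4 expands HSCs when it is forced on, and *Hoxa9* with *Meis1* is a classic pair of cooperating oncogenes in acute myeloid leukemia. MEIS1 and PBX3 belong to the TALE class of homeodomain proteins, which bind DNA together with HOX proteins and sharpen the choice of site. The MLL (KMT2A) complex keeps *Hox* genes active, and Polycomb complexes keep them silent.

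The relation of the members is visible in the part of the homeobox that codes for the recognition helix, the helix that lies in the major groove of DNA. The 30 coding bases below start at the signature shared by all 7, and the capitals mark the codons of its invariant residues, tryptophan, phenylalanine, asparagine and arginine in this order. The stretch was located in each gene by a search for this signature. Tryptophan has no alternative codon, so its codon is the same in all 7, and the other marked codons vary.
*Hoxa5*: TGGTTCcaaAACaggAGGatgaagtggaaa
*Hoxa7*: TGGTTCcagAATcggCGCatgaagtggaag
*Hoxa9*: TGGTTCcagAACcgcAGGatgaaaatgaag
*Hoxa10*: TGGTTTcagAATcgcAGGatgaaactgaag
*Hoxb4*: TGGTTCcagAATcggCGCatgaagtggaaa
*Meis1*: TGGTTTattAATgccCGGagaagaatagtg
*Pbx3*: TGGTTTggcAACaaaCGAatcaggtacaag

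*Hoxa7* and *Hoxb4*, from different clusters, had 29 of the 30 bases in common, and neighboring *Hoxa9* and *Hoxa10* had 27. *Meis1* and *Pbx3* had 14 in common. The stretches were read from GENCODE M21 transcripts on GRCm38, the build to which the authors aligned. The *Hoxa* genes lie on the minus strand of chromosome 6, *Hoxa5* at chr6:52201754-52204587, *Hoxa7* at chr6:52214491-52221854, *Hoxa9* at chr6:52223100-52231089 and *Hoxa10* at chr6:52231197-52240854. *Hoxb4* lies at chr11:96318267-96321638 on the plus strand, *Meis1* at chr11:18879817-19018985 and *Pbx3* at chr2:34171457-34373142, both on the minus strand. Each printed stretch lies in a coding exon, except that the stretch of *Meis1* runs across an exon junction. The longest run of bases that transcripts of any pair of members shared was 47, between *Hoxa7* and *Hoxb4*. *Hoxa7* shares 586 exon bases, 20.4% of its own, with the antisense gene *Hoxaas3*, and *Hoxa9* shares 85 bases (1.5%) with *Mir196b*. *Meis1* shares 1029 bases (9.8%) with *Gm37818* and 896 bases (8.5%) with the antisense gene *Gm16140*, which are not analysed here. The use of strand in the counting is not given in the sources used here. *Hoxaas3* had at most 2.98 CPM and *Mir196b* at most 3.92 CPM in any mouse.

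The 33 libraries used had between 1859784 and 7784627 counts, and the 17 mice, each the sum of its libraries, between 2218618 and 10125624. All 7 members passed the filter on low counts in every fit. Levels are CPM, counts scaled by library size and TMM. *Ythdf2*, the check of the labels, lay between 93.3 and 123 CPM in young CTL and between 50.3 and 60.2 CPM in young CKO mice, and fell by 0.95 on the log2 scale (standard error 0.17, adjusted p = 0.0406). This call was kept in 1 of 8 fits that left out a mouse, the one without young CKO 3 (adjusted p from 0.0368 to 0.211, log2 fold change from -1.01 to -0.87), and was lost with the block of mouse numbers, the Y-linked covariate and all mice in 1 fit, while the groups did not overlap. In aged mice 2 labels went against *Ythdf2*: the mouse labelled CKO 121 had 188 CPM, against 72.4 to 87.7 in the other aged CKO mice, and the mouse labelled CTL 124 had 70.4 CPM, against 142 to 179 in the other aged CTL mice. The library names in the sample descriptions carry 1 code in all young and another in all aged mice, so age and whatever that code stands for cannot be told apart. Y-linked reads marked 3 of 4 young CTL mice and 1 mouse in each other group. All 11 HSC markers were detected. Their sum was 1438 to 1771 CPM in young CTL, 1879 to 2324 in young CKO, 1421 to 2814 in aged CTL and 2065 to 2717 in aged CKO mice. *Cd48*, whose protein the sort excludes, had 53.8 to 87.0 CPM in young CTL and 97.9 to 106 CPM in young CKO mice. In aged mice it had 0.629 to 28.2 CPM in CTL and 1.86 to 19.5 CPM in CKO. The 3 of 6 B cell markers with a row summed to 78.6 to 88.8 CPM in young CTL and 89.8 to 152 in young CKO mice. In aged mice that sum overlapped. The summed level of 6 megakaryocyte and platelet markers was 513 to 872 CPM in young CTL, 1005 to 3146 in young CKO, 389 to 611 in aged CTL and 568 to 2084 CPM in aged CKO mice. The part of these differences in the results below was not tested. In bulk samples, fewer cells that express a gene and less RNA per cell cannot be told apart.

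Levels of different genes were compared per kb of merged exon. *Meis1* had the highest level of the 7 in 17 of 17 mice, with 39.9 ± 9.14 CPM per kb (SD, n = 17), between 2.11 and 6.17 times the next member of the same mouse. *Hoxa10* followed with 10.8 ± 2.40, *Hoxa7* with 9.42 ± 3.06, *Hoxa9* with 8.38 ± 2.24 and *Hoxa5* with 5.71 ± 2.81 CPM per kb. *Hoxb4* with 3.04 ± 1.84 and *Pbx3* with 3.03 ± 1.72 CPM per kb were lowest. The step from *Meis1* to *Hoxa10* was larger than the spread of both genes added, and no other step between neighbors in this order was. *Hoxa10* was above *Hoxa7* in 10 of 17 mice, *Hoxa7* above *Hoxa9* in 12, *Hoxa9* above *Hoxa5* in 13, *Hoxa5* above *Hoxb4* in 16 and *Hoxb4* above *Pbx3* in 9. The length used set part of this order: per kb of the longest transcript, *Hoxa9* (14.5) came before *Hoxa10* (13.7) and *Hoxa7* (13.3 CPM per kb), and *Pbx3* (6.49) before *Hoxa5* (5.71). Counts per mouse behind these levels ranged from 798 to 5610 for *Meis1* and from 20 to 104 for *Hoxb4*.

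**Figure D1:**
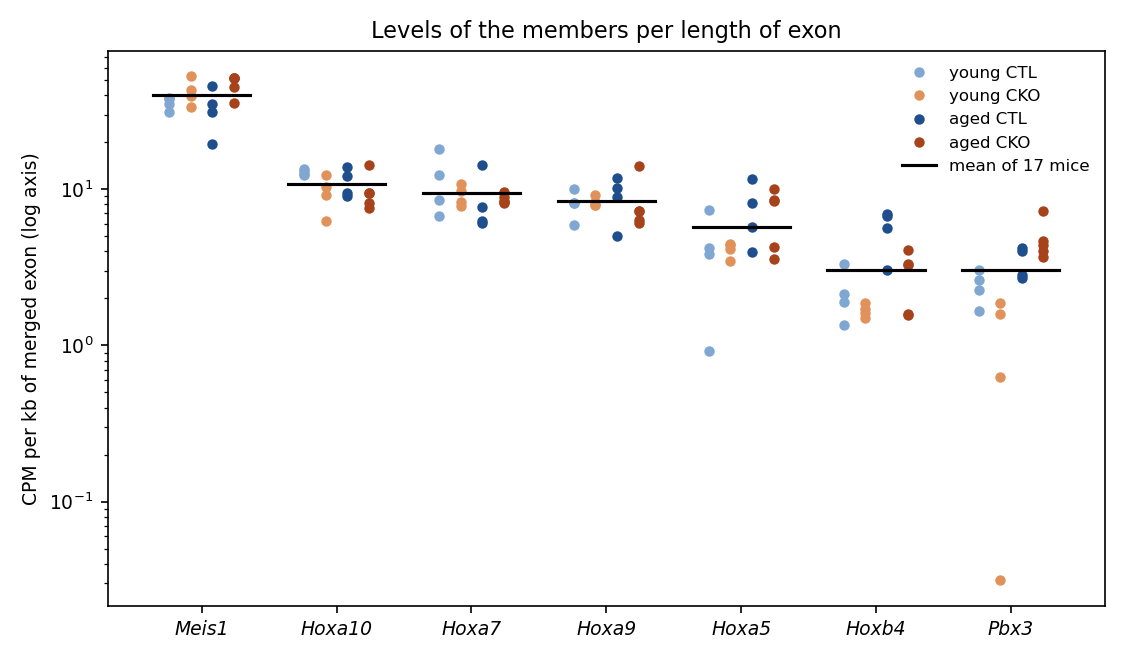
Level of each member per kb of merged exon, on a log axis, with 1 point per mouse, colored by group, and a line at the mean of 17 mice. *Meis1* stands above every other member, and a single young CKO mouse sits far below the rest for *Pbx3*.

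Among the 14 *Hox* genes with a row, 8 of the *Hoxa* and 6 of the *Hoxb* cluster, the members held the first 3 places per kb (*Hoxa10*, *Hoxa7*, *Hoxa9*), place 5 (*Hoxa5*) and place 7 (*Hoxb4*). *Hoxb5*, a gene used as a marker of long-term HSCs, was at 6.51 ± 1.95 and *Hoxb2* at 5.35 ± 2.36 CPM per kb (SD, n = 17). The *Hoxa* genes at the other end of the cluster were low, with means of 0.929 for *Hoxa2*, 1.02 for *Hoxa3* and 1.30 CPM per kb for *Hoxa4*. *Hoxa6*, which lies between *Hoxa5* and *Hoxa7*, was at 0.955 CPM per kb and had no count in 1 mouse. The 4 members gave between 86.7% and 97.4% of the counts of the 8 *Hoxa* rows in a mouse (median 91.5%).

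No member passed the test between genotypes at either age. In the comparison of young CKO with young CTL mice, 0 of 7 members were called, where 0.174% of 11526 genes were called (15 higher, 5 lower), and in 0 of 7 the groups did not overlap, against 4.77% of all genes. In the aged comparison 0 of 7 were called and 0 of 7 did not overlap, where 0.0% of 11961 genes were called and 3.48% did not overlap. That count of 0 over all genes was of edgeR's quasi-likelihood test: 1208 genes had an unadjusted p below 0.05, 1 of them a member (*Meis1*), and 76 genes passed edgeR's likelihood ratio test over mice and 112 genes DESeq2. The median log2 fold change of the members was -0.33 in young mice, with 3 positive and 4 negative, and -0.07 in aged mice, again with 3 positive and 4 negative. Over all genes tested the medians were -0.00093 and -0.0033. No member passed the test of the interaction, the difference of the genotype effect between ages, where 0.0% of 12352 genes were called. In this quasi-likelihood test 588 genes had an unadjusted p below 0.05, 1 of them a member (*Pbx3*). By the likelihood ratio test over mice 4 genes passed.

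**Figure D2:**
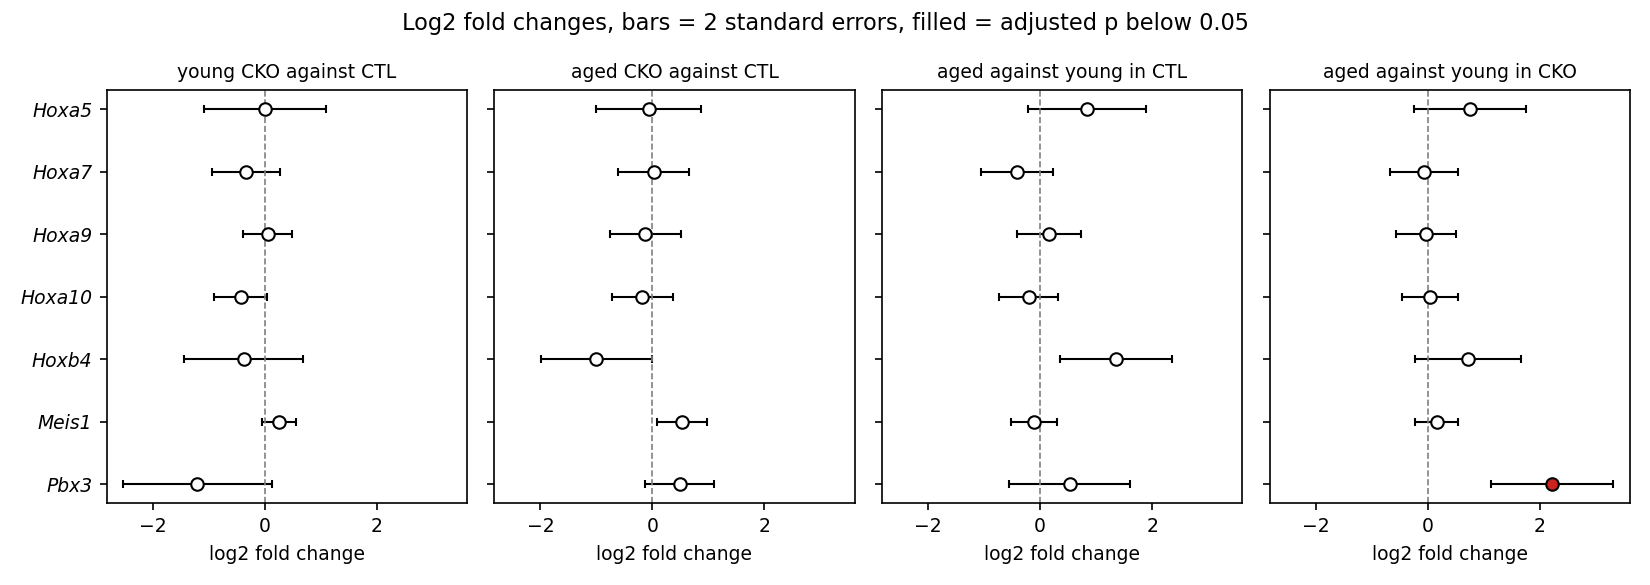
Log2 fold change of each member in 4 comparisons, with bars of 2 standard errors, where a filled point has an adjusted p below 0.05. *Pbx3* in aged against young CKO mice, at 2.22, is the filled point of the plot.

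*Hoxa9*, a driver of self-renewal, overlapped between genotypes at both ages. It had 45.7, 56.2, 45.6 and 32.7 CPM in young CTL mice 1 to 4 and 46.5, 44.2, 44.4 and 51.2 CPM in young CKO mice 1 to 4. The CKO values lay inside the range of the CTL values, and the log2 fold change was 0.05 (standard error 0.22, adjusted p = 0.986, interval of 2 standard errors from -0.38 to 0.48). In aged CTL mice it had 65.3 CPM in mouse 114, 57.0 in 65, 49.9 in 99 and 28.0 in the mouse labelled 124, and in aged CKO mice 40.6 in 122, 33.9 in 78, 40.3 in 81, 35.2 in 94 and 78.0 CPM in the mouse labelled 121. The lowest aged CTL mouse and the highest aged CKO mouse were therefore those whose *Ythdf2* went against the label. With every mouse kept, the log2 fold change was -0.13 (standard error 0.32, adjusted p = 0.931).

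*Hoxa10*, the neighbor of *Hoxa9* upstream on the minus strand, had closely matched levels in young CTL mice, 42.9, 40.1, 44.0 and 40.8 CPM in mice 1 to 4 (coefficient of variation 4.30%). That match was of the summed libraries: A and B had 58.9 and 23.7 CPM in young CTL mouse 3 and 30.9 and 51.7 CPM in mouse 4. The libraries of young CKO mice also differed, with 37.8 and 15.9 CPM in mouse 2 and 27.7 and 4.71 CPM (8 counts) in mouse 3. Young CKO mice 1 to 4 had 40.3, 29.97, 20.5 and 33.6 CPM, so that in the sums 3 of 4 lay below every young CTL mouse and mouse 1, the young CKO mouse with Y-linked reads, lay just inside the CTL range. The log2 fold change was -0.43 (standard error 0.24, adjusted p = 0.774, interval from -0.90 to 0.05). In aged mice the values were 45.6, 39.5, 30.9 and 29.7 CPM in CTL 114, 65, 99 and 124, and 31.1, 24.9, 26.9, 30.7 and 46.7 CPM in CKO 122, 78, 81, 94 and 121. The mouse labelled CKO 121 was again the highest of its group and the mouse labelled CTL 124 the lowest of its own, and the log2 fold change was -0.18 (standard error 0.27, adjusted p = 0.877).

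*Hoxa5* and *Hoxa7*, further along the cluster, scattered most in control mice. *Hoxa5* ranged from 1.72 to 13.9 CPM in young CTL, 6.52 to 8.41 in young CKO, 7.44 to 21.8 in aged CTL and 6.71 to 18.7 CPM in aged CKO mice. Its log2 fold change between genotypes was 0.01 (standard error 0.54, adjusted p = 0.999) in young and -0.07 (standard error 0.47, adjusted p = 0.976) in aged mice, an interval of about 1 on the log2 scale to each side. *Hoxa7* ranged from 19.4 to 52.1 CPM in young CTL and from 22.4 to 30.8 in young CKO mice (log2 fold change -0.33, standard error 0.30, adjusted p = 0.899). It ranged from 17.5 to 41.1 CPM in aged CTL and from 23.5 to 27.6 CPM in aged CKO mice (log2 fold change 0.02, standard error 0.32, adjusted p = 0.987).

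*Hoxb4*, known for the expansion of HSCs when it is forced on, was the member with the lowest median count. Young CTL mice 1 to 4 had 8.57, 4.88, 3.48 and 5.50 CPM and young CKO mice 1 to 4 had 4.15, 4.39, 3.82 and 4.81 CPM, with overlap between the genotypes (log2 fold change -0.37, standard error 0.53, adjusted p = 0.950). In aged CTL mice it had 17.9, 17.3, 14.6 and 7.76 CPM in mice 114, 99, 124 and 65, and in aged CKO mice 10.5, 8.56, 8.37, 4.08 and 4.01 CPM in mice 78, 94, 81, 121 and 122. Apart from CTL 65, every aged CTL mouse lay above every aged CKO mouse. The log2 fold change was -1.0004 (standard error 0.50, adjusted p = 0.513), with an interval from -1.99 to -0.0100.

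*Meis1*, which encodes the cofactor that cooperates with HOXA9, had 369, 396, 402 and 329 CPM in young CTL mice 1 to 4 and 559, 354, 413 and 452 CPM in young CKO mice 1 to 4. Of the young CKO mice, 3 of 4 lay above every young CTL mouse and mouse 2 lay within their range (log2 fold change 0.25, standard error 0.15, adjusted p = 0.821). The aged CTL mice had 484, 371, 329 and 206 CPM in mice 65, 114, 99 and 124, and the aged CKO mice 546, 545, 543, 474 and 378 CPM in mice 81, 78, 94, 122 and 121. Of the aged CKO mice, 3 of 5 lay above every aged CTL mouse, and the mouse labelled CKO 121 was the lowest of its group. *Meis1* had the smallest p of the 7 in this comparison (log2 fold change 0.52, standard error 0.22, unadjusted p = 0.0352 in edgeR's quasi-likelihood test), but it did not pass after adjustment over all genes (adjusted p = 0.453).

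**Figure D3:**
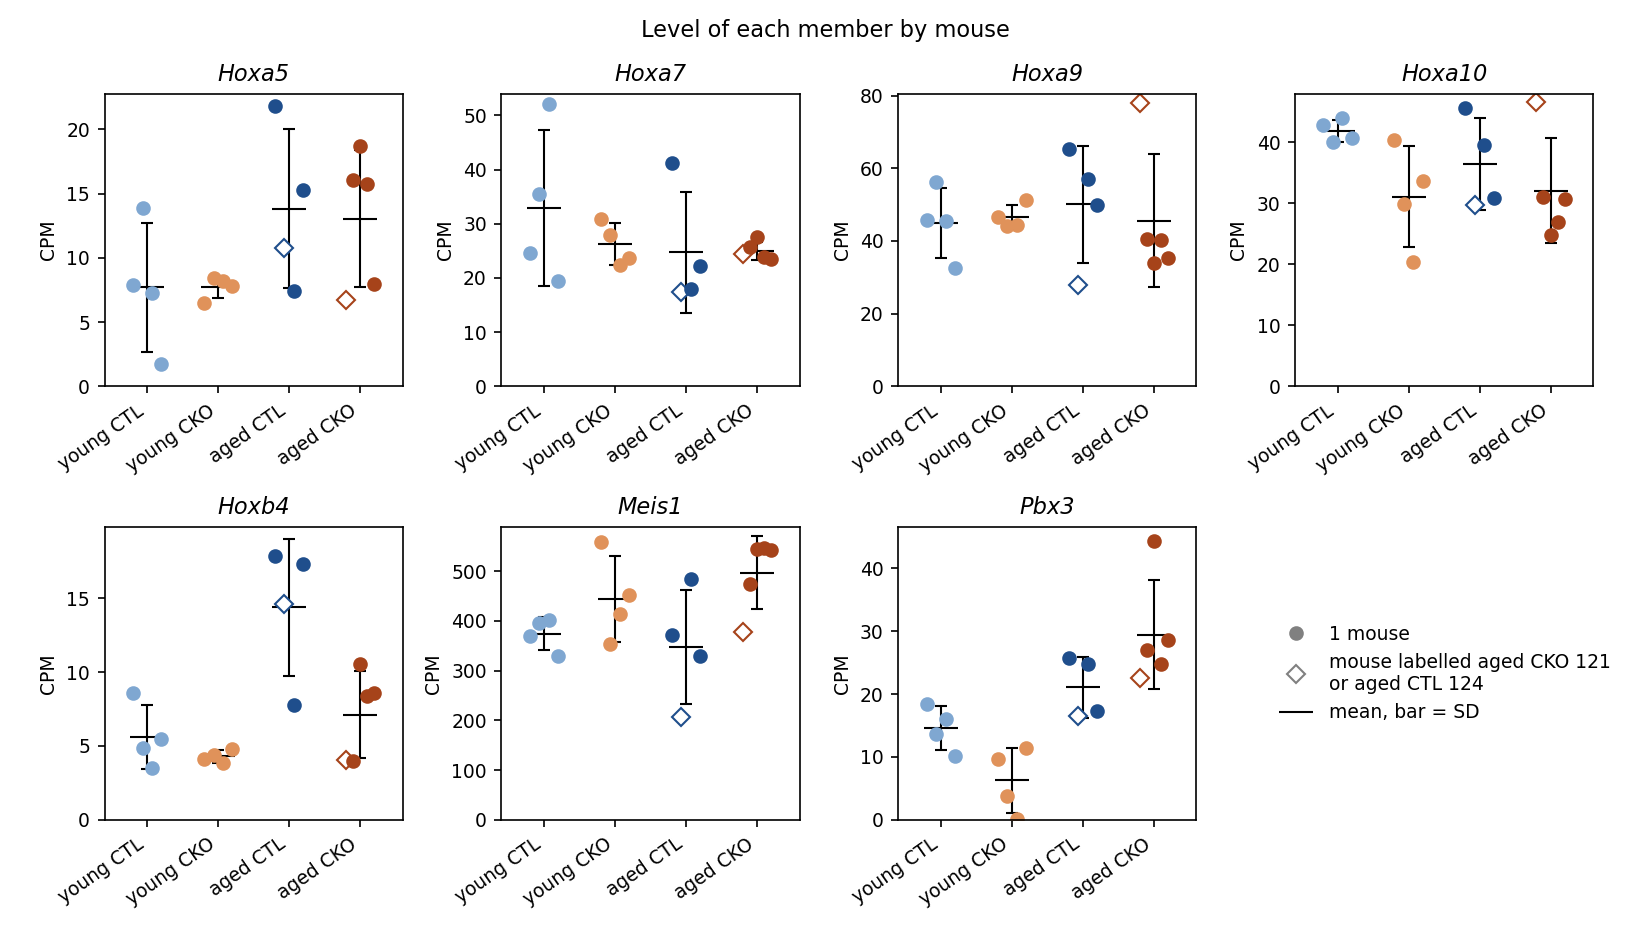
Level of each member in CPM, with 1 point per mouse in the 4 groups, and the mean with SD. Open diamonds are the mice labelled aged CKO 121 and aged CTL 124: the diamond of CKO 121 is the highest of its group for *Hoxa9* (78.0 CPM) and *Hoxa10* (46.7 CPM) and the lowest for *Meis1* (378 CPM).

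Because *Ythdf2* went against both labels, the aged comparison was also run without the mice labelled CKO 121 and CTL 124, which left 4 CKO and 3 CTL mice. Since these mice were set apart by *Ythdf2*, its own log2 fold change without them, -1.06 against -0.48 with every mouse, follows from that choice and is given with no test. *Hoxa9* had 57.4 ± 7.72 CPM in CTL (SD, n = 3) and 37.5 ± 3.44 CPM in CKO mice (SD, n = 4) and was the 1 member of 7 whose groups did not overlap, against 11.5% of 12005 genes. Its log2 fold change was -0.62 (standard error 0.22), which did not pass (adjusted p = 0.295 in edgeR's quasi-likelihood test, where 0.333% of genes were called). *Hoxa10* moved from -0.18 to -0.45 (standard error 0.26, adjusted p = 0.542) and *Hoxa7* from 0.02 to -0.11 (adjusted p = 0.940), a change of sign. *Meis1* at 0.42, *Pbx3* at 0.45 and *Hoxb4* at -0.86 kept their direction, and 0 of 7 members were called without both mice.

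**Figure D4:**
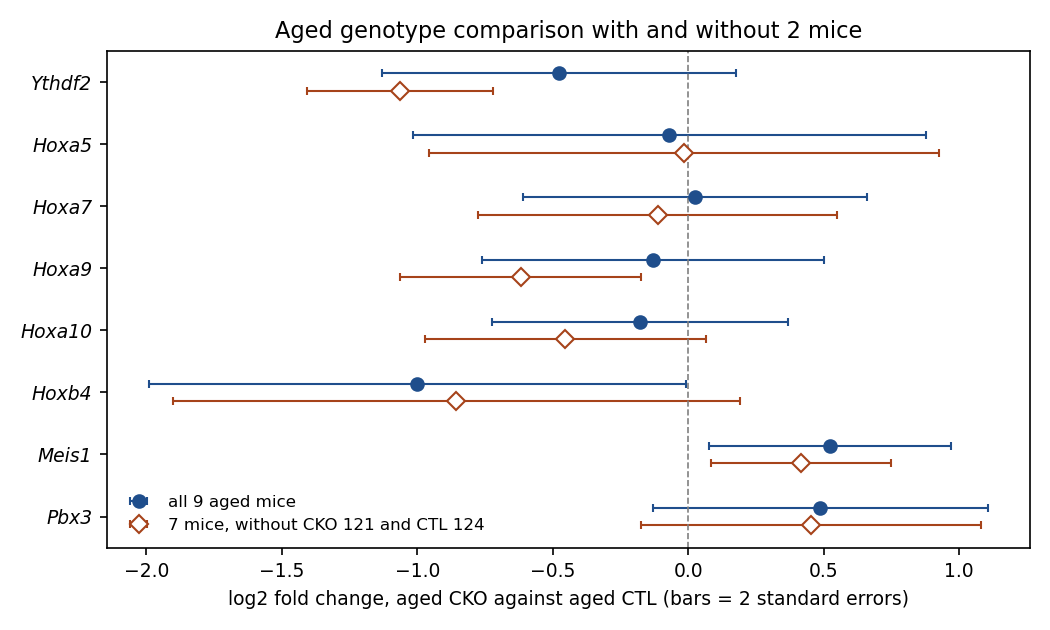
Log2 fold change of *Ythdf2* and of each member between aged CKO and aged CTL mice, with bars of 2 standard errors, in all 9 aged mice (circles) and in the 7 mice without CKO 121 and CTL 124 (diamonds). *Hoxa9* moves from -0.13 to -0.62, and the shift of *Ythdf2* is set by the choice of the mice left out.

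*Pbx3*, a TALE partner of HOXA9, had the widest spread of the 7 among young CKO mice (coefficient of variation 82.7%). Young CTL mice 1 to 4 had 18.5, 13.7, 16.1 and 10.1 CPM, and young CKO mice 1 to 4 had 9.69, 3.84, 0.191 and 11.4 CPM. All but CKO mouse 4 lay below every young CTL mouse. The value of 0.191 CPM in young CKO mouse 3 rests on 1 count, under the level of 3 counts, which is 0.451 to 0.593 CPM in that group and covers counting error only. The log2 fold change between young genotypes was -1.20 (standard error 0.66, adjusted p = 0.771), with an interval from -2.53 to 0.12. Aged CTL mice 114, 65, 99 and 124 had 25.7, 24.7, 17.3 and 16.5 CPM, and aged CKO mice 78, 94, 122, 81 and 121 had 44.3, 28.6, 27.0, 24.7 and 22.6 CPM. The direction between genotypes was thus positive in aged mice (0.49, standard error 0.31, adjusted p = 0.630) and negative in young mice. The test of this difference gave 1.69 (standard error 0.75, unadjusted p = 0.0360 in edgeR's quasi-likelihood test) and did not pass over all genes (adjusted p = 0.999).

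The libraries of a mouse could differ widely for *Pbx3*. It had no count in 3 of 33 libraries: A of young CKO mouse 2, where library B had 21 counts, A of young CKO mouse 3, where B had 1 count, and A of the mouse labelled aged CTL 124, where B had 118 counts. No other member had a library at 0. Summed over 16 mice, the chi-square per degree of freedom between libraries A and B was 14.4 for *Pbx3*, close to the median of 13.5 over genes, 40.1 for *Meis1*, 12.7 for *Hoxa10*, and between 3.88 and 6.91 for the other members. This ratio grows with the count of a gene, and by the median size of the log2 ratio of A to B the spread was 0.26 for *Meis1*, 0.37 for *Pbx3* and 0.38 for *Hoxa10*, with *Hoxb4* at 0.62 the highest of the 7. Reads without molecular identifiers are not independent molecules, so both measures describe these libraries and are no test.

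**Figure D5:**
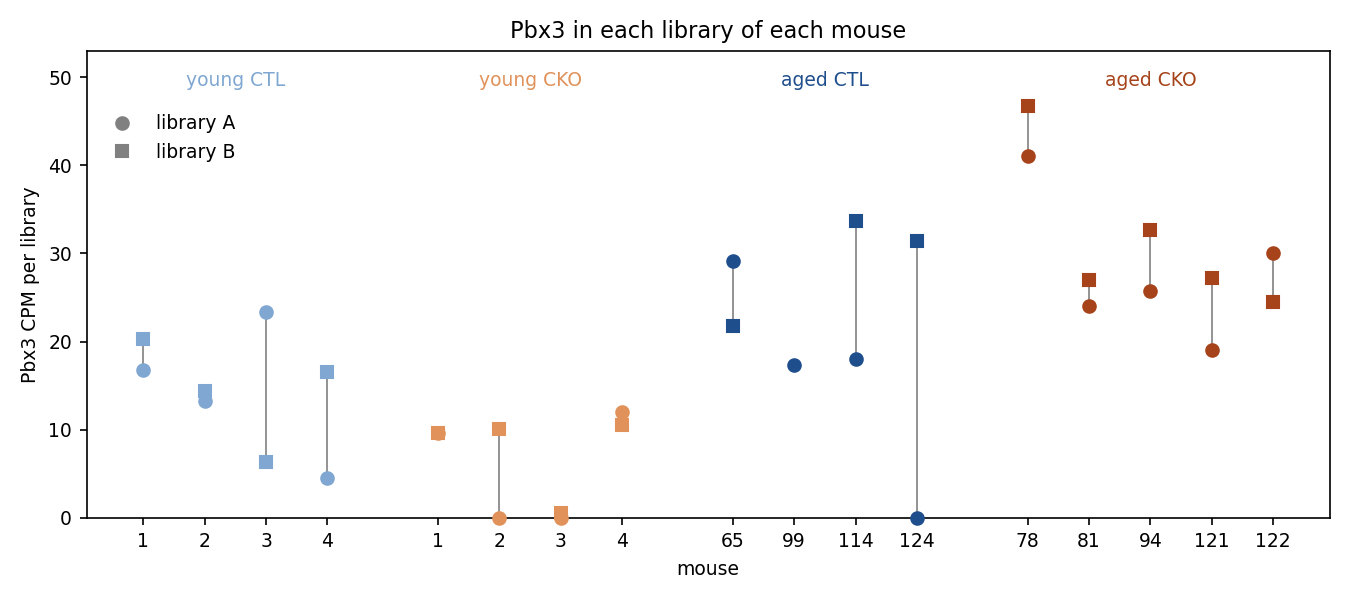
*Pbx3* in CPM in each library, A as circles and B as squares, with a line that joins the libraries of a mouse. The 3 libraries on the axis at 0 belong to young CKO 2, young CKO 3 and aged CTL 124, and every aged CKO library lies above every young CKO library.

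Between ages, *Pbx3* was the member that passed the test. In CKO mice it was at 6.28 ± 5.20 CPM in young (SD, n = 4) and at 29.4 ± 8.62 CPM in aged mice (SD, n = 5), and the lowest aged mouse (22.6 CPM) lay above the highest young mouse (11.4 CPM). The log2 fold change was 2.22 (standard error 0.55, adjusted p = 0.00876). It was called under all 27 alternatives, with log2 fold changes from 1.81 to 2.69 and adjusted p up to 0.0376. Without a CTL mouse, which is not in this contrast, the log2 fold change was 2.21 to 2.22, and without a CKO mouse it was 1.81 to 2.69. Without young CKO mouse 3 it was 1.81 (adjusted p = 0.00836), and without the mice labelled CKO 121 and CTL 124 it was 2.30 (adjusted p = 0.00720). This was 1 of 7 members, beside 16.6% of all 12352 genes called in this comparison (891 higher, 1154 lower), and 1 of 7 members, *Pbx3* itself, did not overlap, beside 20.4% of all genes. In CTL mice the age difference of *Pbx3* was 0.53 (standard error 0.54, adjusted p = 0.543), from 14.6 ± 3.55 CPM in young to 21.1 ± 4.81 CPM in aged mice (SD, n = 4 each).

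In CTL mice 0 of 7 members were called between ages, where 14.8% of 12352 genes were called (828 higher, 997 lower), and 0 of 7 did not overlap, where 17.1% of all genes did not. *Hoxb4* came closest: 3 of 4 aged CTL mice lay above every young CTL mouse, and the mean was 5.61 ± 2.15 CPM in young and 14.4 ± 4.65 CPM in aged mice (SD, 4 mice in each). The difference on the log2 scale was 1.36 (standard error 0.50) and missed the threshold (adjusted p = 0.0699). It was called in 5 of 27 alternatives: the likelihood ratio test over mice (adjusted p = 0.0412) and over libraries (0.0144), DESeq2 (0.0314), the block of library letters (0.0374), and the fit without aged CTL 65 (0.0426). Of these, the test over libraries and the block of library letters took the libraries A and B of a mouse as separate replicates. In CKO mice *Hoxb4* differed by 0.73 between ages (standard error 0.47, adjusted p = 0.320). *Hoxa5* differed by 0.84 in CTL (adjusted p = 0.301) and by 0.75 in CKO mice (adjusted p = 0.332), and neither passed. *Hoxa7*, *Hoxa9*, *Hoxa10* and *Meis1* differed by between -0.42 and 0.16 between ages in both genotypes, with adjusted p from 0.414 to 0.956. The age comparisons share the young and aged groups with the genotype comparisons, and *Cd48* and the code in the library names differed along with age. So did the summed level of the 2 of 6 T or NK cell markers with a row, at 402 to 533 CPM in young CTL, 158 to 326 in aged CTL, 352 to 475 in young CKO and 187 to 355 CPM in aged CKO mice, and the part of these in the age differences was not tested.

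Among the other genes of the program, 9 more *Hox* genes were in the table. Between genotypes 0 of 6 tested in young and 0 of 8 tested in aged mice were called, where 0.174% and 0.0% of all genes were. At each age 1 of these *Hox* genes had a positive log2 fold change (medians -0.62 and -0.61). *Hoxa4* was the highest in young mice (1.89, standard error 0.69, adjusted p = 0.518), with 0.440 to 1.08 CPM in CTL and 2.70 to 4.39 CPM in CKO mice, and the lowest in aged mice (-0.95, adjusted p = 0.801). The level of 3 counts was 0.435 to 0.660 CPM in young CTL mice, so the young CTL values of *Hoxa4* rest on few counts. *Hoxb3* was the lowest in young mice (-1.08, adjusted p = 0.762) and *Hoxb5* the highest in aged mice (0.13, adjusted p = 0.929). *Hoxb2* was the 1 of 9 called between ages in CKO mice, where 16.6% of all genes were, from 9.22 ± 2.07 to 23.7 ± 5.68 CPM (log2 fold change 1.36, standard error 0.33, adjusted p = 0.00733), and it was called in 17 of 17 fits that left out a mouse. Some of those fits left out a CTL mouse, which is not in this contrast. In CTL mice 0 of 9 were called between ages, where 14.8% of all genes were.

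The other TALE cofactors had 8 rows, and 0 were called in any comparison, where the share of all genes was 0.174% and 0.0% between genotypes in young and aged mice and 14.8% and 16.6% between ages in CTL and CKO mice. The lowest log2 fold changes between genotypes were those of *Pbx4* in young (-1.10, adjusted p = 0.571) and *Pbx2* in aged mice (-1.21, adjusted p = 0.494).

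A list of 16 genes held genes of the MLL complex, its elongation partners and other genes, among them *Nup98*, *Kat6a* and *Kat7*. Of the 16, 0 were called between genotypes at either age in the quasi-likelihood test. Over all genes 0.174% were called in young and 0.0% in aged mice. Among the 16, *Psip1*, which encodes the chromatin tether LEDGF, was the lowest in young mice (-0.56, standard error 0.16, adjusted p = 0.305), and *Kmt2a*, the methyltransferase itself, was the lowest in aged mice (-0.97, standard error 0.29, adjusted p = 0.329). Fits that take the libraries A and B of a mouse as separate replicates gave smaller values, in the likelihood ratio test over libraries (adjusted p = 0.00954 for *Psip1* and 0.00601 for *Kmt2a*) and, for *Psip1*, with the block of library letters (0.0395). Over mice neither passed by the likelihood ratio test (0.139 and 0.108) or DESeq2 (0.0713 and 0.0938). *Nup98* was the highest at both ages (0.61 and 0.56, adjusted p = 0.604 and 0.769). Between ages in CTL mice, 3 of 16 were called, a share near the 14.8% of all genes, and 1 rose and 2 fell: *Aff4* rose by 1.02 on the log2 scale (adjusted p = 0.0255), and *Dpy30*, a core subunit of the complex, and *Psip1* fell by 1.01 (adjusted p = 0.00112) and by 0.55 (adjusted p = 0.0347). In CKO mice 4 of 16 were called, beside 16.6% of all genes: 3 rose (*Mllt1* by 1.501, *Kat7* by 0.93, *Wdr5* by 0.72) and *Dpy30* fell by 0.83 (adjusted p = 0.00170).

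Of 15 Polycomb genes, 0 were called between genotypes at either age, where 0.174% of all genes in young and 0.0% in aged mice were. *Ezh2*, the methyltransferase of PRC2, was the lowest in young mice (-0.58, standard error 0.16, adjusted p = 0.305), and the highest were *Ring1* in young (0.63, adjusted p = 0.893) and *Cbx8* in aged mice (0.74, adjusted p = 0.796). Between ages 3 of 15 were called in each genotype, beside 14.8% of all genes in CTL and 16.6% in CKO mice. In CTL mice *Phc1* rose by 1.11 on the log2 scale (adjusted p = 0.0436), and *Eed*, the PRC2 subunit that reads the mark, fell by 0.49 (adjusted p = 0.0483). In CKO mice *Phc2* rose by 0.92, and *Rnf2* and *Eed* fell by 0.74 and 0.61 (adjusted p = 0.0102 for *Eed*). *Eed* was called in 17 of 17 fits that left out a mouse in CKO mice and in 4 of 17 in CTL mice. In each case some of the 17 fits left out a mouse of the other genotype, which is not in the contrast.

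Of 16 genes known downstream of HOXA9, MEIS1 or PBX proteins, 15 were tested in young mice and 1 was called, where 0.174% of all genes were. *Pf4*, a platelet chemokine gene with sites for MEIS1 and PBX proteins and also 1 of the 6 megakaryocyte and platelet markers above, rose from 439.7 ± 170 CPM in young CTL to 1529 ± 898 CPM in young CKO mice (SD, n = 4 each; log2 fold change 1.80, standard error 0.34, adjusted p = 0.0488). It was called in 2 of the 8 fits that left out a young mouse (adjusted p from 0.0324 to 0.276), those without CKO 1 and without CKO 4. It was called by the likelihood ratio tests over mice (adjusted p = 0.000160) and libraries (0.000443), with the blocks of mouse numbers (0.0175) and library letters (0.0359) and with a stricter filter (0.0289). It was not called with the Y-linked covariate (1.33, adjusted p = 0.408), nor, with the log2 fold change at 1.80, with all mice in 1 fit (0.316), by DESeq2 (0.0541), with DESeq2 size factors (0.0509) or with no filter (0.0599). In aged mice it was 2.05 (standard error 0.35) but did not pass (adjusted p = 0.205). With all aged mice kept it passed by the likelihood ratio tests over mice (4.19e-05) and libraries (0.000192), by DESeq2 (1.27e-06) and with the block of library letters (0.0368), and in the quasi-likelihood test it passed without the mice labelled CKO 121 and CTL 124 (2.24, adjusted p = 0.000361) and without CKO 121 alone (2.28). At both ages, the *Pf4* fits over libraries and with library letters took the libraries A and B of a mouse as separate replicates. *Flt3* was the lowest in aged mice (-1.38, adjusted p = 0.398) and *Erg* in young mice (-0.67, adjusted p = 0.809). Between ages, *Bcl2* and *Pim1* were called higher in both genotypes (*Bcl2* by 0.82 in CTL and 0.77 in CKO mice, *Pim1* by 2.14 and 1.91), 2 of 16 genes in CTL mice beside 14.8% of all genes. *Pim1* rested on 1 aged mouse in each genotype: it ranged from 36.4 to 279.6 CPM in aged CTL (median 44.5) and from 37.0 to 328 CPM in aged CKO mice (median 46.7), and it was 0.86 without aged CTL 114 (adjusted p = 0.320) and 0.85 without the mouse labelled CKO 121 (adjusted p = 0.274). With *Bcl2* and *Pim1*, *Erg*, which encodes an ETS factor of HSCs, was called in CKO mice (1.45, standard error 0.38, adjusted p = 0.0119), 3 of 16 genes beside 16.6% of all genes. Of the genes of these lists called between ages, *Dpy30* in both genotypes and *Hoxb2*, *Eed* and *Erg* in CKO mice were called in all 17 fits that left out a mouse, and the others in 4 to 15 of 17. These 17 fits include those without a mouse of the genotype that is not in the contrast.

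Across mice, with each mouse taken as its difference from its group mean in log2 CPM (n = 17, and mice of 1 age share the code in their library names), the highest Pearson's r of the 21 pairs of members was that of the neighbors *Hoxa9* and *Hoxa10* (r = 0.66, Spearman's rho = 0.63, and r = 0.45 without the 2 mice farthest from the median). The order of the pairs changed with the measure: without 2 mice *Hoxa10* and *Pbx3* came first, and by rho *Meis1* and *Pbx3* were second (rho = 0.62, r = 0.34). *Hoxa5* and *Hoxa7* were second by r (r = 0.60, rho = 0.59, and 0.46 without 2 mice), then *Hoxa10* and *Pbx3* (r = 0.57, rho = 0.47, and 0.57). *Hoxa9* and *Meis1*, the classic pair, had r = 0.27 and rho = 0.23. Over 12352 genes, the genes most like each member were *Cd2ap* (r = 0.94) and *Cdipt* (0.90) for *Hoxa10*, *Plscr1* (0.95) and *Esam* (0.94) for *Meis1*, *Tprgl* (0.88) and *Man1b1* (0.87) for *Hoxa9*, and *Rilpl1* (0.91, rho = 0.62) and *Aldh9a1* (0.90, rho = 0.24) for *Pbx3*. They were *Tbc1d8* (0.82) and *Lrrc14* (0.81) for *Hoxb4*, *Kcnab1* (0.81) and *1700102H20Rik* (0.79) for *Hoxa7*, and *Aftph* (0.79) and *Cpt1a* (0.75) for *Hoxa5*. Without the 2 mice farthest from the median, r was 0.63 and 0.52 for the genes of *Pbx3*, 0.53 and 0.48 for those of *Hoxa5* and 0.70 and 0.51 for those of *Hoxa7*, in the order named, and between 0.69 and 0.91 for those of the other members.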

How the data were processed

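RNA-seq of 100 HSCs per library by SMART-Seq2 gave 34 libraries of 17 mice. The authors aligned reads to GRCm38 with HISAT2 and assigned them to genes with Rsubread, and the table they deposited holds raw counts. The annotation, strand and rule for reads shared by paralogs are not given in the sources used here. Aged CTL 99 B (187034 counts) was left out for its low count, as the series' design text states for the authors' own analysis. The libraries of a mouse were added, so the mouse is the replicate. Low genes were removed with filterByExpr (at least 10 counts, total of at least 15). TMM scaling and quasi-likelihood tests were run in edgeR 4.0.16 (R 4.3.3), with Benjamini-Hochberg adjustment over all genes and a threshold of 0.05. Each age had its own fit, and the interaction and the ages were tested in 1 fit of 17 mice. Standard errors were derived from the log2 fold change and the F statistic (its size over the root of F), and log2 CPM used a prior count of 2. Alternatives were likelihood ratio tests over mice or libraries (the study used the likelihood ratio test), DESeq2 1.42.0, DESeq2 size factors within edgeR, no filter or a stricter one on low counts, a Y-linked covariate, replicate blocks, all mice in 1 fit, 99 B kept, both mice that *Ythdf2* went against left out, and each mouse left out. The likelihood ratio test over libraries and the block of library letters took the libraries of a mouse as separate replicates. The code was tested on simulated data.

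The members, lists and tests were chosen with earlier results of these data known. Named genes are the 7 members, *Ythdf2*, and, from each list, the genes called in any comparison and those with the highest and lowest log2 fold change between genotypes. Some genes that this rule names are not reported here. For likeness, 2 genes per member with the highest r are named. Marker lists of B cells, T or NK cells, erythroid cells, granulocytes or monocytes, and stroma or endothelium were also summed per mouse: between 32.5 and 151.9 CPM, 158.0 and 532.9 CPM, 50.1 and 134.4 CPM, 566 and 1259 CPM, and 55.5 and 141 CPM. *Ms4a1* had no count. Positions and transcripts come from GENCODE M21, in which all 7 members matched. Counts without molecular identifiers are not independent molecules, so limits from 3 counts cover counting error only.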

Additional observations from a re-analysis of the deposited data

Results flagged for a closer look

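In the aged CKO group of 5 mice, the mouse labelled 121 stood apart from the others at the 95% level of Dixon's test for *Ythdf2* (188 CPM, next highest 87.7), for *Hoxa9* (78.0 CPM, next highest 40.6) and for *Hoxa10* (46.7 CPM, next highest 31.1). The mouse labelled 78, the aged CKO mouse with Y-linked reads, stood apart for *Pbx3* (44.3 CPM, next highest 28.6). These are 4 of 32 groups examined, 7 members and *Ythdf2* in 4 groups each, where chance gives about 1 in 20, or 1.6.

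The library left out of the comparisons, aged CTL 99 B, held reads of every member in 187034 counts: 31 counts of *Hoxa9*, 18 of *Meis1*, 14 of *Pbx3*, 11 of *Hoxa10*, 10 of *Hoxa5*, 9 of *Hoxa7* and 5 of *Hoxb4*. Scaled to its own total without TMM, *Meis1* was at 96.2 CPM against 360 in library A of the same mouse, and *Hoxa9* at 166 against 54.5 CPM.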

How the results depend on the processing

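Of 833 fits of the members under alternatives, 35 changed sign, 26 of them with a mouse left out, in 13 of 35 member results whose log2 fold change was at most 0.33 in size. *Pbx3* in aged against young CKO mice was called throughout. Genes called in young mice (20) were 67 and 90 by likelihood ratio tests over mice and libraries, 88 by DESeq2, 10 with the Y-linked covariate, 50 with the block of library letters, 1 with all mice in 1 fit, and 0 to 18 with a mouse left out. In aged mice (0) they were 76, 420, 112 by DESeq2, 40 without CKO 121 and CTL 124, 40 with the letter block, 5 with all mice in 1 fit, and 0 to 16. For the interaction (0) they were 4, 3, 15 without both mice, and 0 to 2. Between ages they were 896 to 2048 in CTL (1825) and, in CKO (2045), 3112 by the likelihood ratio test over libraries and 1183 to 2655 with a mouse left out. The count of members called between ages in CTL went from 0 to 1, *Hoxb4*, under both likelihood ratio tests, DESeq2, the letter block and 1 left-out mouse (range 0 to 1), and stayed at 1 in CKO. The cause was not tested.

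Signs changed as follows. With the Y-linked covariate, *Hoxa7* was 0.0323 in young mice and *Meis1* 0.0079 between ages in CTL. Without CKO 121 and CTL 124, *Hoxa7* was -0.11 in aged mice, the interaction of *Ythdf2* was -0.11 and of *Hoxa10* -0.0218, *Meis1* between ages in CTL 0.0785 and *Hoxa10* between ages in CKO -0.13. With the letter block, *Hoxa7* in aged mice was -0.0067 and *Hoxa9* between ages in CKO 0.0471, and 0.0374 by the likelihood ratio test over libraries. With a mouse left out, young *Hoxa5* was -0.32 to 0.47 and *Hoxa9* -0.0778 to 0.18. In aged mice *Hoxa5* was -0.29 to 0.23, *Hoxa7* -0.13 to 0.38, *Hoxa9* -0.41 to 0.0165 and *Hoxb5* -0.0061 to 0.31, and the interaction of *Hoxa5* was -0.54 to 0.25. Between ages in CTL *Meis1* was -0.32 to 0.0649 and *Hoxa9* -0.0141 to 0.34, and in CKO *Hoxa7* was -0.15 to 0.0100, *Hoxa9* -0.32 to 0.0484 and *Hoxa10* -0.14 to 0.18.

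The young groups share mouse numbers 1 to 4, but the correlations of their deviations were 0.039, -0.044, 0.049 and 0.0037, and 2 of 4 mice correlated best with their own number, so the numbers were not taken as pairs. With the replicate block of mouse numbers 14 genes were called in young mice, no member among them, *Pbx3* was at -1.65 (adjusted p = 0.757) and *Ythdf2* at -0.94 (adjusted p = 0.128). Counts per mouse were as low as 10 for *Hoxa5*, 20 for *Hoxb4* and 1 for *Pbx3*, which limits their precision.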
